A study of Mus musculus with 12 samples.

Results

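Antigen presentation genes were followed in ventricular tissue of the mouse heart. The 10 members were the rows of the deposited count table whose symbol is H2-Aa, H2-Ab1, H2-Eb1, Cd74, Ciita or H2-DMa (6 genes of the class II pathway) or H2-K1, H2-D1, B2m or Tap1 (4 genes of the class I pathway). They are 10 of 54949 features in the table, and all 10 were among the 15114 features with enough reads to be tested. The study compared a mouse model of HFpEF (heart failure in which the ejection fraction is preserved), where the heart fills poorly although it still empties well, with control mice. All 12 libraries came from wild-type male C57BL/6N mice that were 8 weeks old at the start and were kept for 5 weeks, and the atria had been removed. The model mice ate a high-fat diet and drank L-NAME (0.5 g/L), which blocks nitric oxide synthases, whereas the controls had normal diet and water.

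Title and library name disagree in every sample. The samples titled HFpEF (high-fat diet and L-NAME) have con-1 to con-6 as library names, while HF-1 to HF-6 belong to samples titled CON (normal diet). Both groups go by library name here, con-named and HF-named, every fold change is HF-named over con-named, and the group that received the diet and L-NAME cannot be told from these labels. The authors' deposited comparison of HF with control follows the library names (for H2-D1, a mean of 3974 scaled counts in HF and 4874 in control). That does not settle which mice were treated, since the titles say the opposite. Each group had 6 libraries, although the design text gives 5 samples per group for bulk sequencing. Separate mice for the libraries are not stated in the labels, so p-values measure only the spread between these samples, which may be technical. The libraries held 14443186 to 22048689 counted reads, and mitochondrial transcripts took 21.0% to 24.01% of them in the con-named libraries and 23.9% to 27.2% in the HF-named libraries. The cardiomyocyte marker list summed to between 64410 and 74360 CPM (counts scaled to a common library size), and none of its 10 genes was at 0 in any library.

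Class I molecules sit on nearly all nucleated cells and show peptides from inside the cell to CD8 T cells. H2-K1 and H2-D1 encode the heavy chains, B2m encodes the light chain beta-2-microglobulin that both need to fold, and Tap1 encodes part of the transporter that pumps peptides into the endoplasmic reticulum. Class II molecules show peptides from endosomes to CD4 T cells and are made mainly by macrophages, dendritic cells and B cells. H2-Aa and H2-Ab1 encode the alpha and beta chain of I-A, H2-Eb1 the beta chain of I-E, Cd74 the invariant chain that chaperones them, H2-DMa part of the editor that loads peptides, and Ciita the coactivator that switches on class II transcription. C57BL/6 mice make no I-E at the cell surface because their I-E alpha chain gene is defective, although H2-Eb1 is transcribed.

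Per length, B2m was the most abundant member and Ciita the least. The deposited FPKM (reads per length of the gene and total of counted reads), as mean ± SD over the 12 libraries, was 336 ± 71.5 for B2m, 108 ± 26.5 for H2-K1, 102 ± 22.6 for H2-D1 and 93.4 ± 25.6 for Cd74. It was 54.7 ± 15.9 for H2-Eb1, 36.1 ± 11.4 for H2-Aa and 32.0 ± 9.79 for H2-Ab1. The last members were Tap1 at 4.25 ± 0.91, H2-DMa at 3.32 ± 1.02 and Ciita at 0.475 ± 0.121. The ranges of H2-K1, H2-D1 and Cd74 overlapped widely. Within libraries, H2-K1 exceeded H2-D1 in 11 of 12 and H2-D1 exceeded Cd74 in 9 of 12, an order that was not tested. The ranges of H2-Aa and H2-Ab1 overlapped as well, although H2-Aa was higher in 12 of 12 libraries. The orders of H2-K1 with H2-D1 and of H2-Aa with H2-Ab1 depended on the gene length used: with CPM per kilobase of GENCODE M21 exon, H2-D1 came before H2-K1 and H2-Ab1 before H2-Aa. The other neighbours kept their order in 12 of 12 libraries.

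On mm10 (GRCm38), GENCODE M21 places most members in the major histocompatibility complex on chromosome 17, all as protein-coding genes. The class I heavy chain genes lie at either end of the stretch, H2-K1 at chr17:33996017-34000347 on the minus strand and H2-D1 at chr17:35262730-35267499 on the plus strand. Between them lie H2-DMa (chr17:34119541-34139101, plus), Tap1 (chr17:34187553-34197225, plus), H2-Ab1 (chr17:34257689-34269419, plus), H2-Aa (chr17:34282744-34287823, minus) and H2-Eb1 (chr17:34305867-34316674, plus). B2m lies at chr2:122147686-122153083 and Ciita at chr16:10480059-10528418, both on the plus strand, and Cd74 is on chromosome 18. H2-K1 and H2-D1 share sequence with other genes, and their counts are uncertain where reads fit those genes too. Of the 50-base stretches of the longest protein-coding transcript of each, 14.3% of those in H2-D1 and 8.79% of those in H2-K1 also occur in transcripts of other genes. The share was 6.47% for Tap1 and at most 0.27% for the other members. Exon bases outside these transcripts were not searched: the H2-K1 transcript has 1619 bases against 2938 exon bases, and that of H2-Aa 1128 against 3798. H2-D1 shared stretches with 168 genes, and 7.4% of its stretches with the closest, H2-Q1. H2-K1 shared stretches with 25 genes, and 6.94% of its stretches with the closest, H2-D1. Strand was not stated for the counting, and H2-DMa shares 10.4% of its exon bases with Brd2, Tap1 3.87% with Psmb9 and Ciita 3.45% with Dexi, each on the opposite strand.

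All 4 class I members had lower mean levels in the HF-named libraries, and H2-D1 was the member that passed the test. Of the 4 class I members, 1 was called lower and 0 higher, and of the 6 class II members 0 were called in either direction (edgeR's quasi-likelihood test, Benjamini-Hochberg adjusted p of at most 0.05 over all genes tested). Among all 15114 genes tested, 13.3% were called, 5.05% lower and 8.28% higher. The median log2 fold change was -0.27 for class I (range -0.30 to -0.24) and -0.21 for class II (range -0.40 to 0.10), against -0.01 for all genes tested. All 4 class I members and 5 of 6 class II members had a negative log2 fold change, as did 52.7% of all genes tested. At an unadjusted p under 0.05 stood 4 of 4 class I members, 1 of 6 class II members (H2-DMa) and 4328 of 15114 genes. limma-voom and DESeq2 also called 0 class II members.

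**Figure D1:**
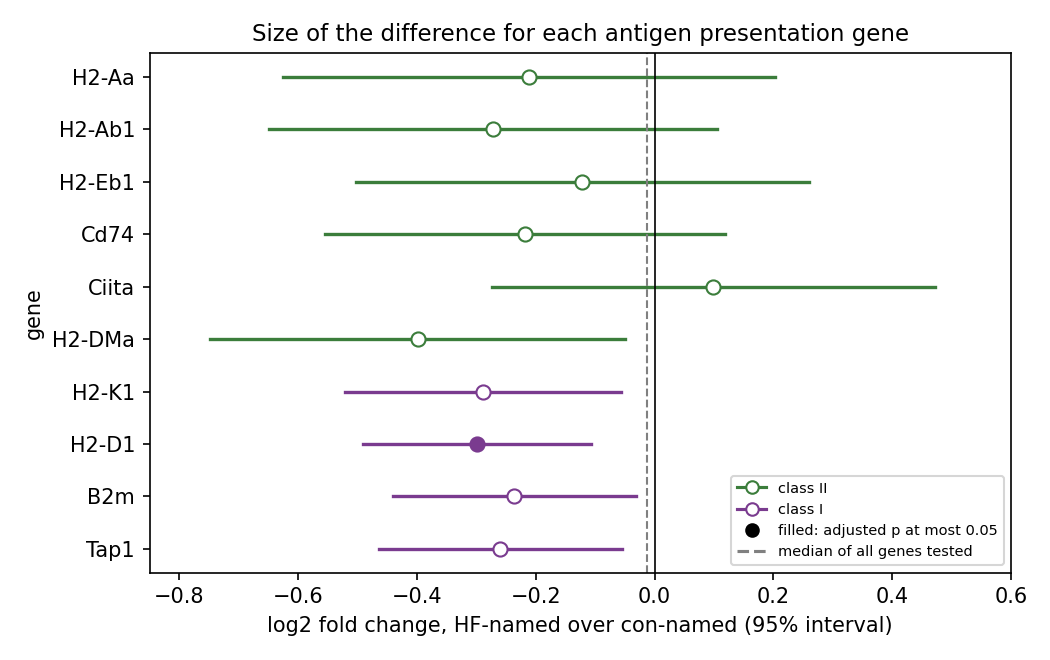
Log2 fold change (HF-named over con-named, x axis) of each antigen presentation gene (y axis), with its 95% interval from edgeR; filled points have an adjusted p of at most 0.05 and the dashed line is the median of all genes tested. H2-D1 at -0.30 is the filled point, the 4 class I intervals lie below 0, and the class II intervals are wider, with H2-DMa alone clear of 0.

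H2-D1, a class I heavy chain, ranged from 231 to 357 CPM in the con-named libraries (median 289) and from 213 to 281 CPM in the HF-named libraries (median 227). The groups overlapped, with 4 of 6 HF-named libraries lower than all con-named ones, a pattern shown by 11.8% of all genes tested. Its mean fell from 288 ± 43.7 to 234 ± 24.02 CPM (SD, n = 6 each), or -0.30 ± 0.09 (SE) on the log2 scale, and the edgeR adjusted p was 0.0391. This is a 0.813-fold level, with a 95% interval of 0.712 to 0.929. With each library left out in turn, the call held in 4 of 12 fits. It was lost without con-named library 2, 4 or 5 and without HF-named library 1, 2, 4, 5 or 6, where the adjusted p reached 0.0829. In the authors' deposited table the log2 fold change of H2-D1 is -0.29 with an adjusted p of 0.0368, and the next lowest adjusted p of a member there is 0.142 (H2-K1).

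H2-K1, the other heavy chain, ranged from 236 to 397 CPM in the con-named libraries (median 310) and from 232 to 310 CPM in the HF-named libraries (median 241). Only 1 HF-named library was lower than all con-named ones, and the con-named libraries were the more spread. The log2 fold change was -0.29 ± 0.11 (SE), with an edgeR adjusted p of 0.0917 and a 95% interval of -0.52 to -0.06. H2-K1 and H2-D1 kept a near-constant proportion: the H2-D1 over H2-K1 count ratio was 0.944 ± 0.0507 in con-named and 0.932 ± 0.0428 in HF-named libraries (SD, n = 6 each).

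B2m, the shared light chain, ranged from 271 to 384 CPM in the con-named libraries (median 300) and from 241 to 347 CPM in the HF-named libraries (median 249). Here 5 of 6 HF-named libraries were lower than all con-named ones, as for 5.74% of all genes tested, and HF-named library 3 was the exception. The log2 fold change was -0.24 ± 0.10 (SE, 95% interval -0.44 to -0.03), with an edgeR adjusted p of 0.118. Tap1, the peptide transporter subunit, ranged from 20.9 to 31.7 CPM (median 25.1) in con-named and from 19.0 to 23.9 CPM (median 20.3) in HF-named libraries. Its groups overlapped, with 4 of 6 HF-named libraries lower than all con-named ones. For Tap1 the log2 fold change was -0.26 ± 0.10 (SE, 95% interval -0.46 to -0.05), with an edgeR adjusted p of 0.0858. Single libraries set how many class I members passed. Without con-named library 1, 3 were called lower (H2-D1, H2-K1 and Tap1, adjusted p 0.0456 for Tap1), without HF-named library 3, 3 were called lower (H2-D1, H2-K1 and B2m, adjusted p 0.00893 for B2m), and without each library named above for H2-D1, 0 were called.

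**Figure D2:**
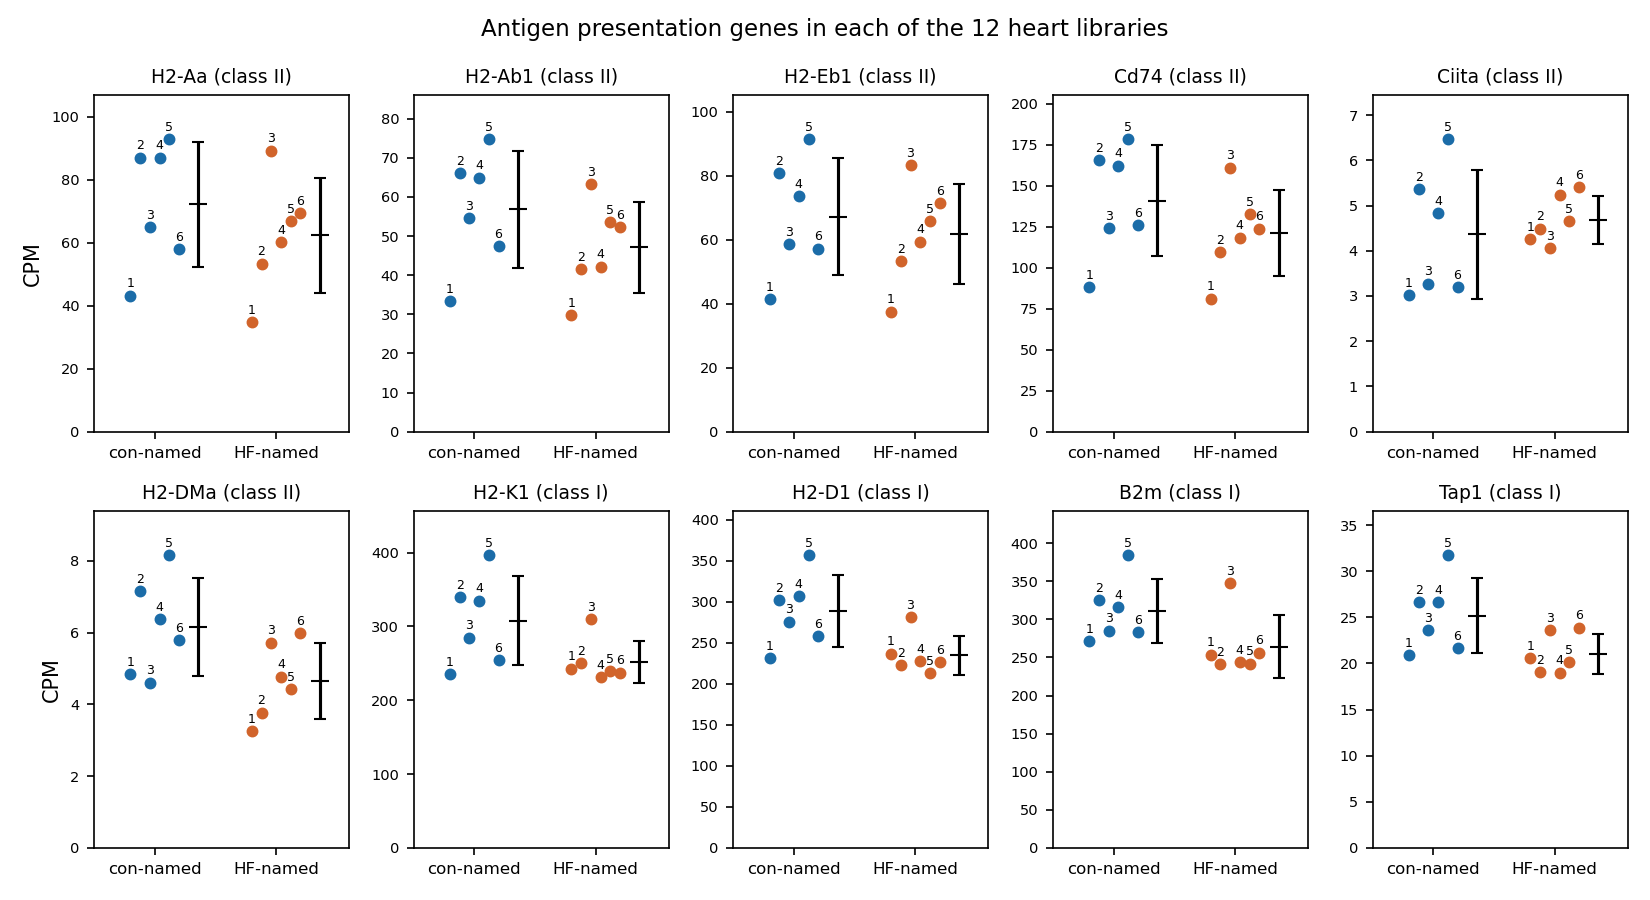
CPM (y axis, from 0) of each antigen presentation gene in each library, one panel per gene, with the con-named and HF-named groups on the x axis; numbers are replicate numbers, and bars are the mean ± SD of 6 libraries. The groups overlap in all 10 panels, con-named library 5 is the highest of its group in each, and HF-named library 3 stands above the rest of its group for H2-K1, H2-D1 and B2m.

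The choice of scaling mattered for class I. Scaling by library totals alone, in place of TMM (a factor that centres the bulk of genes), moved the median of all tested genes (log2 fold change) from -0.01 to -0.13 and the share of calls that were higher from 62.1% to 15.8%. All 4 class I members were then called lower, with edgeR adjusted p-values of 0.0370 for H2-K1, 0.0457 for B2m and 0.0316 for Tap1. Their median of -0.39 lay 0.26 below the median of all genes, as it did under TMM (0.26). The class II count stayed at 0, with a median of -0.34.

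The 4 abundant class II members overlapped widely between the groups. H2-Aa, the I-A alpha chain, ranged from 43.2 to 93.0 CPM in con-named (median 76.0) and from 34.8 to 89.3 CPM in HF-named libraries (median 63.5). H2-Ab1, its beta chain partner, ranged from 33.3 to 74.8 CPM (median 59.8) in con-named and from 29.7 to 63.2 CPM (median 47.2) in HF-named libraries. For each of them 1 HF-named library, number 1, was lower than all con-named ones, as for 53.3% of all genes tested. The log2 fold change was -0.21 ± 0.20 (SE) for H2-Aa, with an edgeR adjusted p of 0.516 and a 95% interval of -0.63 to 0.20. For H2-Ab1 it was -0.27 ± 0.18 (SE), with an edgeR adjusted p of 0.340 and a 95% interval of -0.65 to 0.11. Both intervals include 0.

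Cd74, the invariant chain, ranged from 88.2 to 178 CPM in con-named (median 144) and from 81.1 to 161 CPM in HF-named libraries (median 121). H2-Eb1, the I-E beta chain, ranged from 41.4 to 91.5 CPM (median 66.1) in con-named and from 37.5 to 83.2 CPM (median 62.6) in HF-named libraries. Both genes spanned about the same range in either group. The log2 fold change was -0.22 ± 0.16 (SE, edgeR adjusted p 0.397) for Cd74 and -0.12 ± 0.18 (SE, edgeR adjusted p 0.706) for H2-Eb1.

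H2-DMa and Ciita were the least abundant class II members and had log2 fold changes of opposite sign, neither past the test. H2-DMa, part of the peptide editor, ranged from 4.60 to 8.16 CPM in con-named (median 6.08) and from 3.26 to 5.98 CPM in HF-named libraries (median 4.60). It had the most negative value of the 10 members, and 3 of 6 HF-named libraries were lower than all con-named ones, as for 20.9% of all genes tested. The log2 fold change was -0.40 ± 0.16 (SE, 95% interval -0.75 to -0.05), with an unadjusted p of 0.0275 and an edgeR adjusted p of 0.119. Ciita, the class II coactivator, ranged from 3.02 to 6.47 CPM (median 4.05) in con-named and from 4.06 to 5.41 CPM (median 4.57) in HF-named libraries. All HF-named values lay inside the con-named range, and the SD was 0.538 CPM in HF-named against 1.42 CPM in con-named libraries. For Ciita the log2 fold change was 0.10 ± 0.18 (SE, edgeR adjusted p 0.758), and it turned to -0.03 with library totals.

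The SD within each group was larger than the difference between the group means for 5 of the 6 class II members, the exception being H2-DMa, and the spread was shared between genes. In the con-named group, libraries 2, 4 and 5 were high and 1, 3 and 6 low for each of the 6 class II members. In the HF-named group, library 1 was the lowest and library 3 the highest for H2-Aa, H2-Ab1, H2-Eb1 and Cd74. The highest con-named library exceeded the lowest 2.15-fold for H2-Aa and 1.42-fold for B2m. The variation of single class II chains largely cancelled in ratios: the coefficient of variation over con-named libraries was 27.5% for H2-Aa and 26.4% for H2-Ab1, but 4.57% for their count ratio.

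Across the 12 libraries, Cd74 tracked the 3 class II chains closely. With group means subtracted from log2 CPM, Pearson's r of Cd74 was 0.983 with H2-Aa, 0.981 with H2-Ab1 and 0.981 with H2-Eb1, with Spearman's rho of 0.965, 0.958 and 0.944. Each had a permutation p of 2e-05 for r, the smallest that 100000 permutations can give, and 8e-05 after Benjamini-Hochberg adjustment over the 12 relations computed. Without the 2 libraries farthest from the median of Cd74, r was still 0.965, 0.941 and 0.953. H2-DMa followed less closely (r = 0.835, rho = 0.874, permutation p 0.00072 and 0.00056, adjusted 0.00108 and 0.00112, and r = 0.779 without the 2 farthest libraries).

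Ciita was the loosest class II member. Its r with Cd74 was 0.641 and its rho 0.671 over the 12 libraries (permutation p 0.0199 and 0.0195, the same after adjustment), and r was 0.562 without the 2 farthest libraries. Within the groups r was 0.897 over the 6 con-named and 0.0088 over the 6 HF-named libraries, a difference that was not tested. The permutation p-values of these relations came from shuffling group-centred values over all 12 libraries, across groups. They are approximate where the spread differs between groups, as for Ciita (SD 1.42 CPM in con-named and 0.538 CPM in HF-named libraries). Ciita had at most 123 reads per library, H2-DMa at most 155 and Cd74 up to 3418; the part of counting error in these relations was not tested.

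Class I members also tracked one another, and Cd74 tracked them; whether these relations differ in strength was not tested. B2m had an r of 0.897 with H2-K1 (rho 0.839), 0.925 with H2-D1 (rho 0.944) and 0.829 with Tap1 (rho 0.895), with permutation p-values for r of 8e-05, 8e-05 and 0.00062 and adjusted values of 0.000192, 0.000192 and 0.00106. The adjusted permutation p-values for rho were 0.00171, 0.00024 and 0.00048, and r without the 2 libraries farthest in B2m was 0.867, 0.885 and 0.847. Cd74 had an r of 0.724 with B2m, 0.800 with H2-K1, 0.738 with H2-D1 and 0.730 with Tap1, with rho of 0.846, 0.797, 0.734 and 0.748 (adjusted permutation p for r 0.00106, 0.00152, 0.00519 and 0.00519, and for rho 0.00171, 0.00341, 0.00953 and 0.00818). Without the 2 farthest libraries these r were 0.880, 0.878, 0.843 and 0.813. Over the 6 libraries of each group, r of Cd74 with H2-D1 was 0.940 in con-named and 0.394 in HF-named libraries, and that difference was not tested. The points share library depth and tissue composition, whose part in these relations was not tested.

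**Figure D3:**
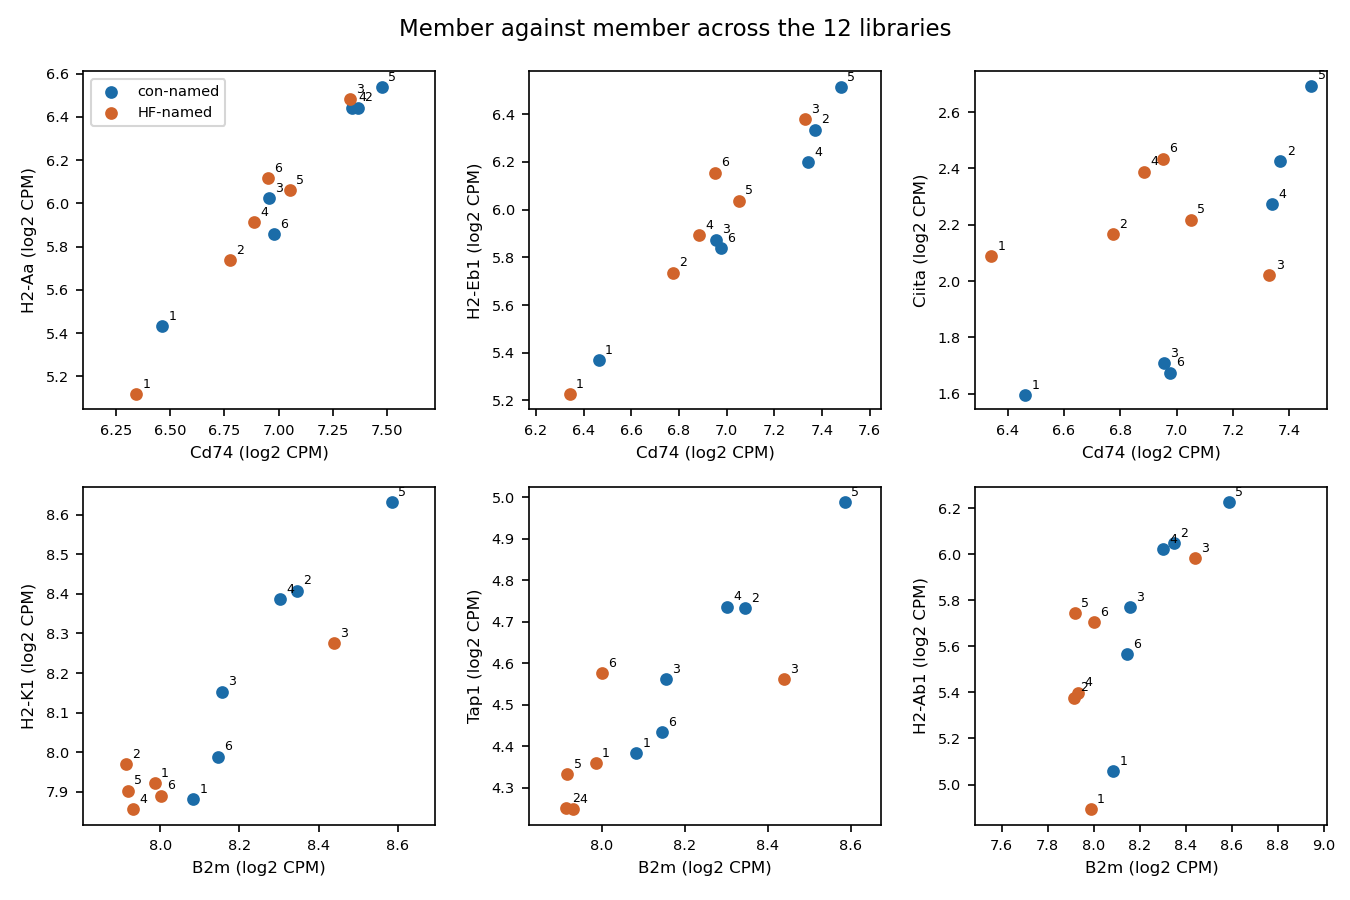
Log2 CPM of pairs of members, 1 point per library, coloured by group and numbered by replicate. H2-Aa and H2-Eb1 lie along a line with Cd74 in both groups (r = 0.983 and 0.981 with group means subtracted), Ciita scatters (r = 0.641), and among class I the HF-named libraries other than 3 cluster at low B2m.

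Of 10 count ratios between members, 1 passed the test between the groups. The 10 ratios were chosen after the values were seen, and the adjustment does not cover that choice. The H2-Eb1 over H2-Ab1 ratio was 1.18 ± 0.0657 in con-named and 1.31 ± 0.0672 in HF-named libraries (SD, n = 6 each), and 5 of 6 HF-named libraries exceeded every con-named library. The difference in the log2 ratio was 0.15, with a two-sided exact permutation p of 0.00433 over 924 splits and 0.0433 after Benjamini-Hochberg adjustment over the 10 ratios. With each library left out in turn it passed in 2 of 12 comparisons, those lacking con-named library 1 or HF-named library 5. Without any of the others the adjusted exact permutation p lay above the threshold, up to 0.108 without HF-named library 4 or 6. Ciita over H2-Ab1 was 0.0767 in con-named and 0.105 in HF-named libraries (exact permutation p 0.0541, adjusted 0.271), and the adjusted p of the other 8 ratios was 0.645 or more.

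The genes whose pattern across the 12 libraries was most like the mean of the 6 class II members, group means subtracted, were found among 12224 candidates. They were Ctss (r = 0.979), Myo1f (0.934), Cadm1 (0.930) and Mpeg1 (0.924). Ctss, which is also in the class II pathway list, encodes cathepsin S, the protease that trims the invariant chain, and Mpeg1 a pore-forming protein of macrophages. Ctss had an r with the class II mean above that of Ciita (0.763). None of the 4 was called, and Ctss stood at -0.31 ± 0.15 (log2 fold change and SE; edgeR adjusted p 0.189). Most like the class I mean were Arpc1b (0.943), Nckap1l (0.927), Rab5c (0.926) and G0s2 (0.919). G0s2, an inhibitor of triglyceride breakdown, was the one of these that was called: it fell from 37.6 ± 9.48 to 23.7 ± 4.90 CPM (log2 fold change -0.67 ± 0.15, edgeR adjusted p 0.00905). These r values are descriptions of the highest of many.

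RefSeq promoter windows (GRCm38.p6, 250 bases before to 50 after a start site) were used for 7 of the 10 members, those other than Cd74, Ciita and H2-Ab1. The 180 bases before the start site are shown for members that moved together, class II first, with capitals marking the matches to 5 motifs. Class II promoters are known to carry an X box, bound by the RFX complex, an X2 box, bound by CREB, and a Y box, bound by NF-Y, and Ciita docks on these factors. Class I promoters are known for a kappa B site and an interferon-stimulated element, read by NF-kappa B and IRF factors. Searched on both strands were an X box core (AGNNACNGATG), an X2 box (TGACGTCA), the Y box (ATTGG), an IRF core (AANNGAAA) and a kappa B site (GGGATTCCC), the X2 box being added after the H2-Aa window was read. The windows are chr17:34287824-34288003 on the minus strand, chr17:34305687-34305866 on the plus strand, chr17:34000348-34000527 on the minus strand, chr17:35262914-35263093 on the plus strand and chr2:122147507-122147686 on the plus strand.
H2-Aa: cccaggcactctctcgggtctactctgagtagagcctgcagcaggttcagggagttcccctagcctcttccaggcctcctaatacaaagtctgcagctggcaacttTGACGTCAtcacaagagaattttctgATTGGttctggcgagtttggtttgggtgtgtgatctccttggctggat
H2-Eb1: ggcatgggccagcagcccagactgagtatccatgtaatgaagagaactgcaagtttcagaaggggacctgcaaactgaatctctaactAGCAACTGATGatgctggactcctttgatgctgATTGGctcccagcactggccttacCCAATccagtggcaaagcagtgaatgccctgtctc
H2-K1: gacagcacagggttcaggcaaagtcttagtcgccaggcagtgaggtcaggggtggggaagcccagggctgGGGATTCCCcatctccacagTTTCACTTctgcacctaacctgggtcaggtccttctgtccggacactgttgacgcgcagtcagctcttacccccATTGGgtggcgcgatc
H2-D1: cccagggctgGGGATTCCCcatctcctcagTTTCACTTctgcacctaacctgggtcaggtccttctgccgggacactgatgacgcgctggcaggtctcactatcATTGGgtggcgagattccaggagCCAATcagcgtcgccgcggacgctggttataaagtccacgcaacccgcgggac
B2m: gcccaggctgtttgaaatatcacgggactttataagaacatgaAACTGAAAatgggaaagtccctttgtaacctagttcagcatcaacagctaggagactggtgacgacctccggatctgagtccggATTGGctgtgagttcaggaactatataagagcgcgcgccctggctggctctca

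H2-Eb1 held the X box core from -92 to -82 and Y boxes at -59 to -55 and, reversed, -35 to -31, counting the start site as 0. Among 32851 RefSeq mouse promoter windows, 0.968% held the X box core, 37.4% a Y box and 0.122% both within 40 bases. H2-Aa held the X2 box at -74 to -67 and a Y box at -48 to -44, and these letters for the X box core were not in its window. An IRF core stood farther upstream in H2-Aa, at -213 to -206, outside the bases shown. H2-DMa had windows at start sites chr17:34122832 and chr17:34125518, and the first held none of the motifs. The second held a Y box at -198 to -194 and a reversed IRF core at -25 to -18, with neither X box motif. That IRF core lies in a run of T bases. Whether either start site serves the class II transcript was not tested. The X2 box was found in 1.79% of all windows.

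H2-K1 and H2-D1 each held the kappa B site, followed on by the reversed IRF core and a Y box. Their 300-base windows aligned over 239 columns with 88.3% identical bases, whereas H2-Aa and H2-Eb1 aligned with 49.1% and H2-D1 and B2m with 50.3%. The kappa B site was found in 0.353% and the IRF core in 23.9% of all windows. B2m held an IRF core at -137 to -130 and a Y box at -53 to -49, without the kappa B letters. The Tap1 window held 1 reversed Y box at -222 to -218 and no IRF core. The IRF core thus occurred in windows of both classes. A match describes the letters and was not tested as a binding site.

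Of the 19 other genes listed for the class II pathway, 17 were tested. Among them 1 was higher and 0 lower, beside 8.28% higher and 5.05% lower of all genes tested. Their median log2 fold change was 0.01. The higher gene was March8, a ubiquitin ligase that removes surface proteins, at 51.8 ± 3.58 CPM in con-named and 59.2 ± 2.79 CPM in HF-named libraries (log2 fold change 0.19, edgeR adjusted p 0.0234). Its call was lost without con-named library 5 or 6 or HF-named library 5, with an adjusted p of up to 0.0568, with library totals (0.274) and with the filter of 1 count (0.0595). The X and Y box factors were not called: the log2 fold change was 0.18 for Rfx5, -0.15 for Rfxank, 0.20 for Rfxap, -0.04 for Creb1, 0.01 for Nfya, 0.02 for Nfyb and -0.14 for Nfyc. H2-DMb1, partner of H2-DMa in the editor, had a log2 fold change of -0.15 (edgeR adjusted p 0.690). H2-Oa and H2-Eb2 had too few reads to be tested.

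In the class I pathway, the calls beside the members went both ways. Of 16 other genes tested, 2 were higher and 1 lower, beside 8.28% higher and 5.05% lower of all genes tested. Their median was -0.10. Psme1, an activator subunit of the proteasome that makes class I peptides, fell from 104 ± 9.26 to 86.5 ± 6.95 CPM (log2 fold change -0.26 ± 0.07, edgeR adjusted p 0.0161), and the call held whichever of the 12 libraries was left out. Npepps, an aminopeptidase of the cytosol, rose from 98.0 ± 4.96 to 116 ± 7.29 CPM (0.24 ± 0.05, edgeR adjusted p 0.00656), likewise in all 12. Canx, the chaperone calnexin, had a log2 fold change of 0.23 (edgeR adjusted p 0.0487), and its call held without HF-named library 1 or 3 or con-named library 3 and was lost without any other library, with an adjusted p of up to 0.119. The Canx call was also lost with RLE size factors (0.0530), library totals (0.163, log2 fold change 0.12), the filter of 1 count (0.0910) and the filter of 1 CPM in 6 libraries (0.0523). The immunoproteasome subunits Psmb8, Psmb9 and Psmb10 had log2 fold changes of -0.27, -0.21 and -0.09 and were not called. Nlrc5, the class I counterpart of Ciita, had -0.13 (edgeR adjusted p 0.488).

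Of 13 class I-like and nonclassical genes tested (of 18 listed, H2-Q2 with 0 reads in all 12 libraries), 2 were lower and 0 higher, with a median of -0.09. Of all genes tested, 5.05% were lower and 8.28% higher. Cd1d1, which presents lipids to NKT cells, fell from 4.32 ± 0.959 to 2.92 ± 0.441 CPM (log2 fold change -0.57 ± 0.15, edgeR adjusted p 0.0234), a call lost without con-named or HF-named library 4 or 5 (adjusted p up to 0.0565). H2-M3, which presents formylated peptides, had a log2 fold change of -0.36 (edgeR adjusted p 0.0489), and this was still called in 3 of 12 leave-out fits, those without con-named 1, HF-named 3 or HF-named 6. The H2-M3 call was also lost with limma-voom (0.0521) and with the filter of 1 count (0.0780). H2-Q4, H2-Q6 and H2-Q7, close relatives of H2-K1 and H2-D1, had log2 fold changes of -0.12, -0.09 and -0.04.

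Interferon targets are set beside all genes tested, of which 13.3% were called (5.05% lower and 8.28% higher). An unadjusted edgeR p under 0.05 was held by 7 of 25 tested interferon-gamma genes, 6 of 18 type I targets and 4328 of 15114 genes. Of 25 genes of interferon-gamma signalling tested, 1 was lower and 0 higher (median -0.06): Nos2, the inducible nitric oxide synthase, at 14.1 ± 2.59 CPM in con-named and 9.90 ± 2.70 CPM in HF-named libraries (log2 fold change -0.53 ± 0.16, edgeR adjusted p 0.0401). With each library left out in turn, Nos2 was still called without con-named 1 or 6 or HF-named 1 or 3 (4 of 12 fits), and was otherwise lost (adjusted p up to 0.0887). Irf1, a transcription factor that acts on class I promoters, had a log2 fold change of -0.35 (edgeR adjusted p 0.224). Irf1 reached 57.1 CPM in con-named library 2 and lay between 21.3 and 38.9 CPM in the other 11. Ifng itself had at most 0.177 CPM and was not tested. Without con-named 6, HF-named 1 or HF-named 3, 1 gene of the interferon-gamma list was called higher. Of 18 targets of type I interferon, 2 were higher and 0 lower (median 0.00), Oas2 (0.39 ± 0.09, edgeR adjusted p 0.00997, called whichever library was left out, 0.0632 with library totals) and Rsad2 (0.32 ± 0.10, edgeR adjusted p 0.0401). Rsad2 was called without con-named 1 or 2 or HF-named 4 or 5 and lost without any other library (up to 0.106), with library totals (0.197) and with the filter of 1 CPM in 6 libraries (0.0503). In the type I list, 1 gene was called lower without con-named 1 or HF-named 1, 2, 3 or 6.

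Of 5 tested costimulatory and adhesion ligands, 1 was lower and 0 higher, beside 5.05% lower and 8.28% higher of all genes tested. The lower gene was Icam1 (log2 fold change -0.36 ± 0.12, edgeR adjusted p 0.0493), and it was still called in 3 of 12 leave-out fits, those without con-named 1 or 3 or HF-named 6. It was also lost with limma-voom (0.0727) and with the filter of 1 count (0.0543). Cd80, Cd86 and Cd40, the ligands that accompany class II on presenting cells, had log2 fold changes of 0.10, -0.35 and 0.05 and were not called.

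**Figure D4:**
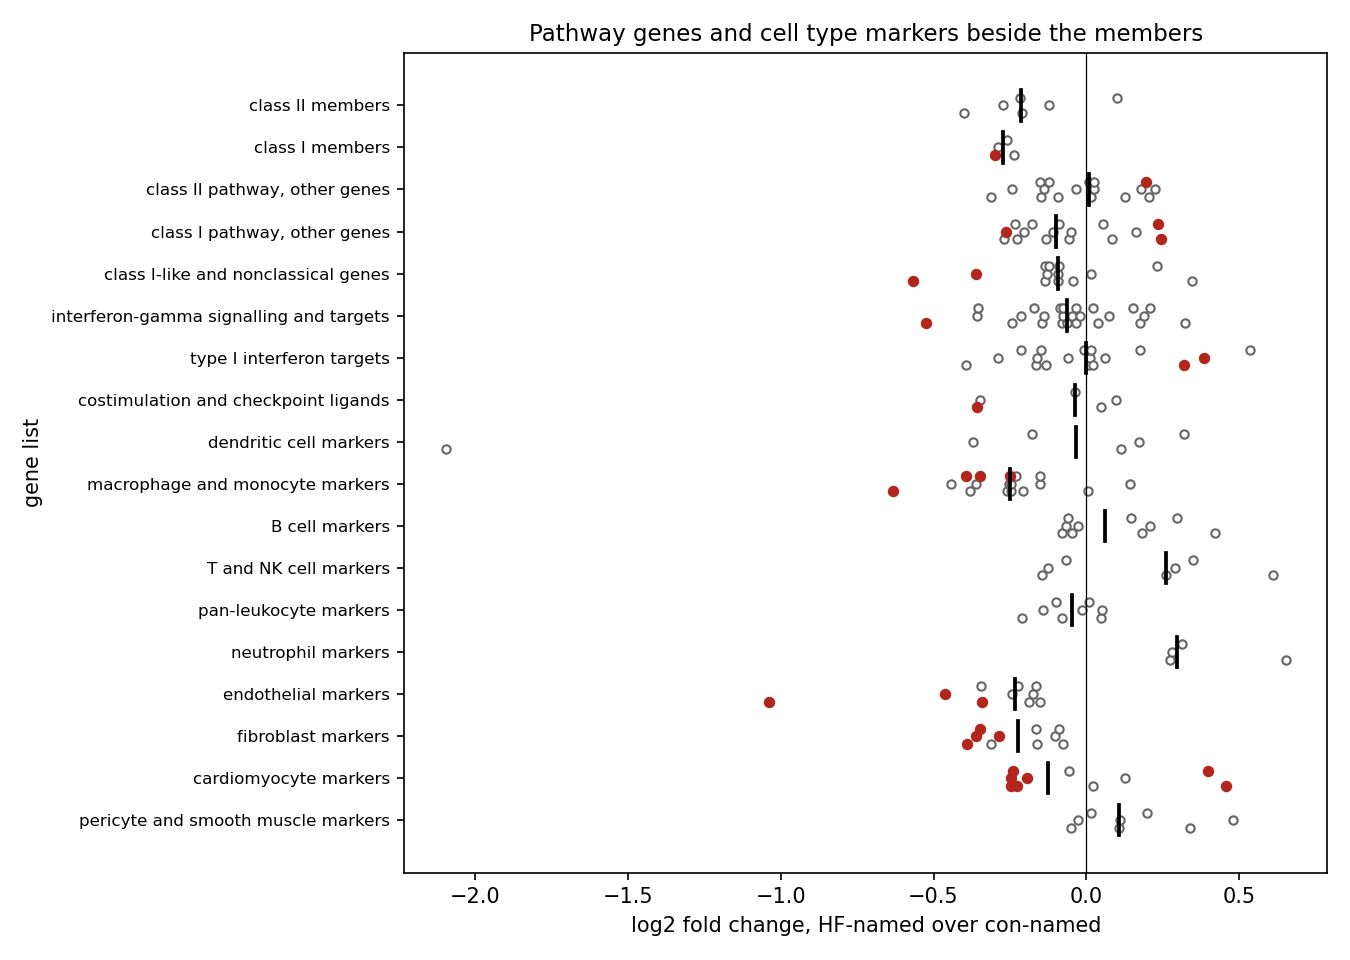
Log2 fold change (HF-named over con-named, x axis) of each tested gene in the member classes and the 16 other gene lists (y axis); filled points have an edgeR adjusted p of at most 0.05, and black ticks are list medians. Class I (median -0.27) and class II (-0.21) members lie near the macrophage (-0.25), endothelial (-0.23) and fibroblast (-0.23) lists. Dendritic cell (-0.03) and pan-leukocyte (-0.05) medians lie near 0, while B cell (0.06), pericyte (0.11), T and NK cell (0.26) and neutrophil (0.30) medians lie to the right of 0.

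Markers of the cells that carry these molecules moved with the groups in part. The counts of called markers, here and in the paragraphs that follow, stand beside 5.05% lower and 8.28% higher of all genes tested. In bulk tissue, fewer cells of a type and less RNA per cell cannot be told apart. Of 17 macrophage and monocyte markers tested, 4 were lower and 0 higher (median -0.25), and the summed list ranged from 291 to 384 CPM in con-named and 243 to 329 CPM in HF-named libraries, 4 of 6 HF-named sums being lower than all con-named sums. The lower genes were Lyz2 (log2 fold change -0.39, edgeR adjusted p 0.0150), Folr2 (-0.63, 0.0200), Csf1r (-0.35, 0.0335) and Mrc1 (-0.25, 0.0469). With the filter of 1 count, the calls of Folr2 (0.0899) and Mrc1 (0.0556) were lost. Folr2 shares 63.1% and Csf1r 15.1% of exon bases with a gene on the opposite strand. The count ranged from 2 (without con-named 4, 5 or 6 or HF-named 1, 2, 4 or 5) to 5 (without con-named 1). No marker of this list was at 0 in all libraries, and the part of macrophages in the members' differences was not tested.

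Some markers of endothelial cells and fibroblasts, which carry class I, were lower too. Of 10 endothelial markers, 3 were lower and 0 higher (median -0.23), led by Vwf, von Willebrand factor, which fell from 93.5 ± 14.3 to 45.3 ± 13.1 CPM (log2 fold change -1.04 ± 0.15, edgeR adjusted p 0.000792). The endothelial sum was 1393 to 1807 CPM in con-named and 1104 to 1657 CPM in HF-named libraries, and the count ranged from 1 (without con-named 2, 4, 5 or 6 or HF-named 2, 4, 5 or 6) to 6 (without HF-named 3). Of 10 fibroblast markers, 4 were lower and 0 higher (median -0.23), among them Dcn, the matrix proteoglycan decorin (-0.35 ± 0.07, edgeR adjusted p 0.00519). With single libraries left out, that count ranged from 3 to 5. The fibroblast sum was 1196 to 1468 CPM in HF-named and 1471 to 1883 CPM in con-named libraries, without overlap. Most of it came from Gsn (mean 808 CPM in con-named and 662 CPM in HF-named libraries) and Dcn (297 and 234 CPM). The separation was not shared by every marker: for Col1a2 and Col3a1, 0 HF-named libraries were lower than all con-named ones, and for Col1a1, 1 was. The part of endothelial cells and fibroblasts in the class I values was not tested.

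No marker of dendritic cells, B cells or the other leukocytes listed was called. Of 6 dendritic cell markers, 10 B cell markers, 8 pan-leukocyte markers, 7 T and NK cell markers and 4 neutrophil markers tested, 0 were called, with medians of -0.03, 0.06, -0.05, 0.26 and 0.30. At an unadjusted p under 0.05 stood 1 dendritic marker (Batf3, with 264 reads in con-named library 2 and at most 19 in each other library), 1 T and NK cell marker and 0 of the other 3 lists. limma-voom and DESeq2 also called 0 in these 5 lists, and 1 T and NK cell marker was called higher without con-named library 5. Of 10 cardiomyocyte markers, 2 were higher (Ttn, Ryr2) and 5 lower (Myl3 and Myl2 with the smallest p), with a sum that overlapped between the groups, and 3 were lower without con-named library 1, 4, 5 or 6 or HF-named library 1, 2, 4 or 6, and 0 with the filter of 1 count. Of 8 pericyte and smooth muscle markers, 0 were called by edgeR, 1 by limma-voom and 2 by DESeq2, and 3 had an unadjusted p under 0.05. Their sum was higher in all 6 HF-named libraries (1474 to 1674 against 1287 to 1463 CPM). Most of that sum came from Rgs5 (mean 625 CPM in con-named and 718 CPM in HF-named libraries) and Abcc9 (359 and 386 CPM). A negative log2 fold change was found for 2 of the 8.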

How the data were processed

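The 12 libraries hold poly-A-selected RNA of mouse ventricles, per the labels' protocols. The submitters' processing notes name the build mm10 and the tools HTSeq 0.9.1, HISAT2 2.0.5 and cutadapt 1.15. Which annotation was counted, and with which strand setting, is not given in the sources used here. The deposited table holds unnormalized read counts per gene and library, and FPKM values that the authors computed from these counts, their column totals and a fixed length per gene. The authors' deposited comparison holds group means of scaled counts (a signal), log2 fold changes and raw and adjusted p-values; it is quoted where named and enters no test here.

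Groups follow the library names in the labels, since titles and treatments give the opposite condition for every sample. Counts were tested with edgeR 4.0.16 (R 4.3.3): filterByExpr, TMM, the quasi-likelihood test with group as the only term, and Benjamini-Hochberg adjustment over the 15114 genes tested, at a threshold of 0.05. The standard error is the size of the log2 fold change over the root of the F statistic, and intervals are 95% intervals from the same fit. CPM uses the TMM-scaled library size, and log2 CPM for likeness used a prior count of 2. At these depths, 3 counts correspond to 0.142 to 0.217 CPM. The steps were tested on simulated counts beforehand.

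Alternatives were RLE size factors, library totals, a filter of at least 1 count, a filter of at least 1 CPM in 6 libraries, a replicate block, limma-voom 3.58.1, DESeq2 1.42.0, each library left out in turn, CPM per exon length in place of FPKM, and likeness without subtracting group means. The leave-out check of the member ratio was added after its value was seen, and the ratios were chosen after the values were seen. Correlations, and the Benjamini-Hochberg adjustment over relations and ratios, used SciPy 1.17.1. The permutation p-values of correlations and ratios were computed with purpose-written Python code. Promoter alignments used Biopython 1.88 (local, match 2, mismatch -1).

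The members and gene lists were chosen with earlier results of these data known. Genes named were the 10 members, up to the 4 called genes of smallest p in each of 16 other lists (or the most abundant gene where none was called), and the 4 genes most like each class mean (at least 1 CPM on average, leaving out unnamed gene models and pseudogenes). Other list genes named in the text, with Batf3 and Irf1, were chosen after their values were seen. The 503 unnamed features of the table stayed in the counts and were not named.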

Additional observations from a re-analysis of the deposited data

Results flagged for a closer look

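A library whose distance to its nearest neighbour, as a share of its group's range, exceeded Dixon's 95% critical value for 6 values was marked, over 51 named genes in both groups (102 groups of 6 libraries). There were 9 such values. Chance marks about 1 in 20 groups, a rate for independent genes that were not chosen by their values. Batf3 and Irf1 were added after their values were seen. H2-K1, H2-D1 and B2m track one another, and Rab5c was picked for its likeness to the class I mean. The 9 values therefore cannot be weighed against that rate. HF-named library 3 held 6 of them: H2-K1 at 309.7 CPM, H2-D1 at 280.8 CPM and B2m at 347.1 CPM, each the highest of its group, Ighm, the heavy chain of IgM, at 14.9 CPM and the endosomal GTPase Rab5c at 42.98 CPM, also highest, and March8 at 53.7 CPM, the lowest. For B2m the next HF-named library had 256.2 CPM. Without this library B2m and H2-K1 were called lower as well as H2-D1, as given above.

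Con-named library 5 was highest for Rab5c at 48.47 CPM and for the fibroblast gene Dpt at 74.79 CPM. Con-named library 2 held Batf3, a factor of cross-presenting dendritic cells, at 12.77 CPM (264 reads), against at most 19 reads in each of the other 11 libraries. With this library included, Batf3 had a log2 fold change of -2.09 (edgeR adjusted p 0.102), and without it the con-named mean was 0.698 ± 0.277 CPM (SD, n = 5) against 0.664 ± 0.244 CPM in HF-named libraries (SD, n = 6). The same library held the highest Irf1 value, 57.1 CPM.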

How the results depend on the processing

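Under library totals without a scaling factor, 3065 genes and 4 members were called, against 2016 genes and 1 member under TMM. The median of the other class II pathway genes turned from 0.01 to -0.11 and that of the pericyte and smooth muscle markers from 0.11 to -0.0083, by a setting that moved the median of all genes to -0.13. Library totals also gave 8 lower macrophage, 5 lower endothelial, 5 lower class I pathway and 3 lower class II pathway genes. With a replicate block, 1131 genes and 0 members were called, and H2-D1 had an edgeR adjusted p of 0.0841 (log2 fold change -0.29). Same-numbered libraries had correlations of -0.161 to 0.09, and 2 of 6 correlated best with their own number. These values cannot show how mice or batches were numbered, so whether the block reflects the design is not known. With 1 library left out, 0 to 3 members and 1355 to 2550 genes were called.

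The direction held for 9 of the 10 members in all 7 other settings and all 12 left-out libraries; the exception was Ciita, at -0.03 with library totals. With 1 library left out, the log2 fold change of H2-Eb1 ranged from -0.23 to -0.01, H2-Aa from -0.34 to -0.09 and Ciita from 0.01 to 0.24. The Ciita adjusted p, like that of the other 5 class II members, stayed above the threshold in each of these fits, the nearest being H2-DMa (0.0505 to 0.176 over the 7 settings). The H2-D1 call held in 6 of 7 settings (adjusted p 0.0162 to 0.0841). Over all settings, the class I median ranged from -0.39 to -0.20 and the class II median from -0.34 to -0.11. Likeness without subtracting group means gave Ctss, Myo1f, Mgl2 and Fyb for class II, and Rab5c, Arpc1b, G0s2 and Nrp1 for class I. Depth limits Ciita and H2-DMa most, with at most 123 and 155 reads per library.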
